A study of Rattus norvegicus with 18 samples.

Results

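Meningeal fibroblasts build the collagen-rich sheets that cover the brain, and the genes described here are 10 that such cells express strongly. They are the small leucine-rich proteoglycans decorin (Dcn), lumican (Lum), osteoglycin (Ogn), fibromodulin (Fmod) and biglycan (Bgn), the collagen chains Col1a1, Col1a2 and Col3a1, the growth factor Igf2 and the binding protein Igfbp2. The list of genes was chosen with earlier results of these data known. All probes of these genes were taken by RefSeq accession or, failing that, by gene name or synonym, without use of their values. This gave 10 of 16262 named genes and 14 of 41012 probes.

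The arrays compared male, alcohol-naive rats of a strain selected for high ethanol preference (WHP) with rats of a strain selected for low preference (WLP). RNA came from the nucleus accumbens (Ac), the prefrontal medial cortex (Pf) and the hippocampus (Hp). Each RNA sample was a pool of equal amounts from 3 rats, and each area had 3 pool pairs, that is 3 WHP pools each set against 1 WLP pool. A pool pair was hybridised to 2 two-colour arrays with the dyes swapped, which makes 18 arrays in all, and the mean of both arrays counts as 1 replicate. The labels give no age for the rats. The 3 pool pairs of an area are labelled as biological replicates. Whether the rats behind the pools of one area also gave those of another is not stated.

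The meninges are the membranes around the brain, and their fibroblasts secrete fibrillar collagens. Type I collagen is built from Col1a1 and Col1a2 chains and type III from Col3a1. The leucine-rich proteoglycans bind collagen fibrils and set their diameter and spacing. Igf2 is an imprinted growth factor that in the adult rodent brain is made mainly by the meninges and the choroid plexus, and Igfbp2 binds insulin-like growth factors outside cells. In bulk tissue, fewer cells of a type and less RNA per cell cannot be told apart.

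Medians over the spots of an array were 78.2 to 209 in green and 133 to 303 in red, and 28670 to 38173 spots per channel were well above background. Striatum markers (13 genes) stood 2.64 to 3.34 log2 units above the median probe on the nucleus accumbens arrays and 0.97 to 1.29 on the hippocampus arrays, but also 2.63 to 3.20 on the prefrontal arrays, so these carried striatal marker signal. Cortex markers (8 genes) stood at 2.07 to 2.39 on the prefrontal arrays and hippocampus markers (10 genes) at 1.32 to 1.52 on the hippocampus arrays, each with its area at or near the top. Dye-swapped arrays correlated over all detected probes at 0.30 to 0.70 in 7 pool pairs, but at 0.04 in nucleus accumbens pair 3 and -0.004 in hippocampus pair 2. All 14 probes were well above background on 6 of 6 arrays in both strains and every area, and 0 of their spots were saturated or left out.

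The sequences of the Col1a1 probes are shown because 3 probes of this gene gave ratios of different size, and the Col3a1 probe because it resembles 2 of them. Each line gives a stretch of 30 of the 60 bases. Capitals mark the 7 positions where 2 Col1a1 probes overlap on chromosome 10 of the rn4 build.
Col1a1, probe at chr10:83637903-83637962, last 30 bases: ccatcatcgatgtggcacccttgGACGTTG
Col1a1, probe at chr10:83637956-83638015, first 30 bases: GACATTGgtgccccagaccaggaattcgga
Col1a1, probe at chr10:83638177-83638236, first 30 bases: aacttagtttttatctttgaccaactgaac
Col3a1, probe at chr9:44317465-44317524, first 30 bases: catgagactccccatcatagatatcgcacc
The overlapping Col1a1 probes are identical at 6 of these 7 positions, and the remaining Col1a1 probe, the brightest, begins 162 bases beyond them. In the best ungapped alignment the Col3a1 probe matched the first of these Col1a1 probes at 29 of 41 aligned bases and the second at 21 of 26. The Dcn probe (chr7:35037331-35041132) and the Lum probe (chr7:35086409-35086468) lie close together on chromosome 7, where the Dcn probe spans an intron. The other brightest probes lie at chr17:20987215-20987274 (Ogn), chr13:46998263-46998322 (Fmod), chrX:159393349-159393408 (Bgn), chr4:29428206-29428265 (Col1a2), chr1:202906641-202906700 (Igf2) and chr9:71967157-71967216 (Igfbp2).

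The 250 bases before the annotated start are shown for Col1a2, Lum and Igfbp2, a collagen, a proteoglycan and a growth factor binding protein whose ratios moved together to different degrees. They come from RefSeq on the GRCr8 build, whose promoter table held 6 of the 10 genes. Capitals mark 4 motifs on either strand, namely the TATA box, searched as TATAAA, the CAAT box, searched as CCAAT, the GC box, searched as GGGCGG, and the SMAD element, searched as CAGAC.
Col1a2, chr4:33518307-33518556, plus strand: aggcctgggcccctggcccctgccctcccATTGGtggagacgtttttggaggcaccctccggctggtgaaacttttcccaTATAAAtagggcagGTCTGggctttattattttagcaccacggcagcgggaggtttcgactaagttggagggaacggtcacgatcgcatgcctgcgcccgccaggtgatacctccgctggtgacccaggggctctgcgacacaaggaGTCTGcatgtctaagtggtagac
Lum, chr7:34245456-34245705, plus strand: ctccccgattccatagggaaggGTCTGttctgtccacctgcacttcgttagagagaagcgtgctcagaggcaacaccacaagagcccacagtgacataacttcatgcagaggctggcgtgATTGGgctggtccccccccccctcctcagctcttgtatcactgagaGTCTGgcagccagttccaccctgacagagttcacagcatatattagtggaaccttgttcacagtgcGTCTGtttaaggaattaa
Igfbp2, chr9:81864561-81864810, plus strand: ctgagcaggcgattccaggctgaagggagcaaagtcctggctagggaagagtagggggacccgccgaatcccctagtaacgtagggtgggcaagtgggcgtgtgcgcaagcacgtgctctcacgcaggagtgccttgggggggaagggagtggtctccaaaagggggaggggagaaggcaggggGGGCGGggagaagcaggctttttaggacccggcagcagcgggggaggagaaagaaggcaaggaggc
Of these motifs the Col1a2 window held the TATA box, the CAAT box and the SMAD element, the Lum window the CAAT box and the SMAD element, and the Igfbp2 window the GC box. The SMAD element was in 5 of the 6 genes, the CAAT box and the GC box in 3 each and the TATA box in 2. These counts are by gene, and the 6 genes had 7 windows. Igf2 had 2 windows, of which 1 held none of the 4 motifs. Among all 33469 promoter windows of this length the SMAD element was in 42.9%, the CAAT box in 34%, the GC box in 30.5% and the TATA box in 12.9%. In the Ogn window the TATA box matched on both strands at overlapping positions. GC content was 58.4% in the Col1a2, 52.8% in the Lum and 64% in the Igfbp2 window, against a median of 51.2% over all windows. A match is a run of letters and was not tested as a binding site.

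The strain comparison asked whether the genes differed between WHP and WLP within an area. The ratios of the 10 genes were large in single pool pairs and pointed both ways. Ratios are given in log2 units with the WHP pool over its WLP partner, and those above 0 are higher in WHP. The median over the 10 genes was 1.31, 2.83 and -1.18 in nucleus accumbens pairs 1, 2 and 3. It was -1.10, 0.003 and 1.03 in prefrontal pairs 1, 2 and 3, and 1.42, 6.82e-04 and 0.60 in hippocampus pairs 1, 2 and 3. WHP was thus higher for 10 of 10 genes in 5 pool pairs, for 5 genes in prefrontal pair 2 and hippocampus pair 2, for 1 gene in nucleus accumbens pair 3 and for 0 in prefrontal pair 1.

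**Figure D1:**
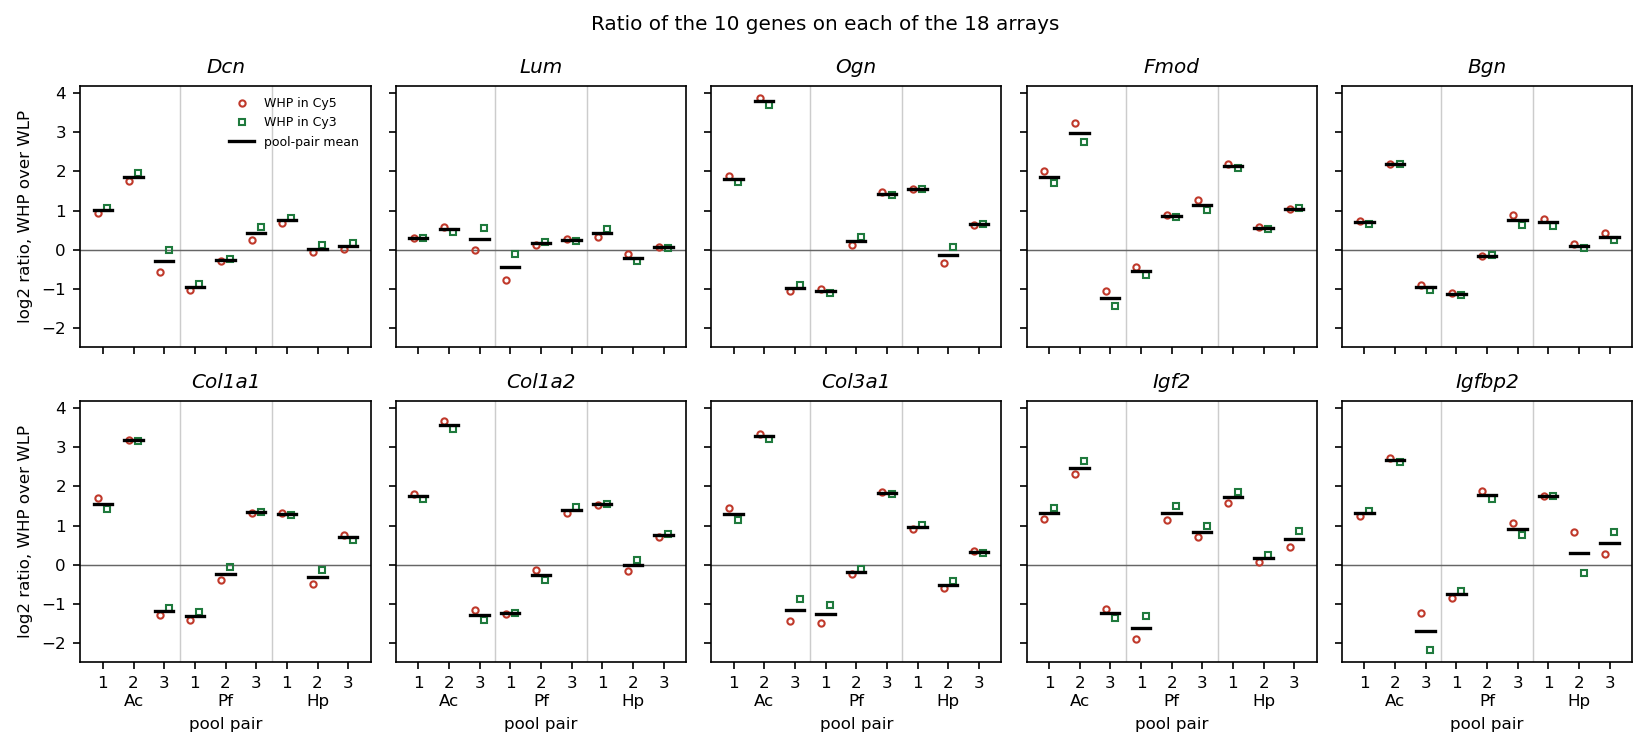
Log2 ratio of WHP over WLP for each of the 10 genes (brightest probe) by pool pair in the nucleus accumbens (Ac), prefrontal medial cortex (Pf) and hippocampus (Hp). Open circles are arrays with WHP in Cy5, open squares arrays with WHP in Cy3, and bars their mean; the largest ratios are those of nucleus accumbens pair 2, up to 3.80 for Ogn, and most genes lie below 0 in nucleus accumbens pair 3 and prefrontal pair 1.

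All 3 collagens moved over several log2 units between pool pairs, Col1a2 most (SD over the 9 pairs 1.57, against 1.49 for Col3a1 and 1.46 for Col1a1). Col1a2 stood at 1.74, 3.58 and -1.29 in the nucleus accumbens pairs, at -1.25, -0.28 and 1.39 in the prefrontal pairs and at 1.54, -0.02 and 0.75 in the hippocampus pairs. Its partner chain Col1a1 stood at 1.56, 3.18 and -1.19, at -1.32, -0.23 and 1.34 and at 1.29, -0.31 and 0.70 in the same order. Both chains were highest in WHP in nucleus accumbens pair 2, 11.9-fold for Col1a2 and 9.08-fold for Col1a1, and lowest in nucleus accumbens pair 3 (Col1a2) and prefrontal pair 1 (Col1a1). Col3a1, the type III chain, stood at 1.30, 3.29 and -1.16, at -1.27, -0.18 and 1.83 and at 0.97, -0.52 and 0.32. In all 3 collagens each area held pool pairs of both signs.

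The other probes of Col1a1, Col1a2 and Ogn had the sign of the brightest probe in 9 of 9 pairs but smaller ratios. The Col1a1 probe that overlaps at its end ranged over 1.03 log2 units across the pool pairs and its neighbour over 1.69, against 4.50 for the brightest. Their ratios correlated with it at 0.96 and 0.98, but the order of the pairs differed in part. The brightest probe was higher in nucleus accumbens pair 1 (1.56) than in hippocampus pair 1 (1.29), while these probes had 0.11 and 0.29 in the former and 0.41 and 0.60 in the latter. The second Col1a2 probe ranged over 3.55 against 4.87 (r = 1.00 to 2 decimals, slope 0.72), and the second Ogn probe over 4.00 against 4.86 (slope 0.84). The reason for the smaller ratios was not tested.

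The proteoglycans followed the collagens, with Lum the exception in size. Ogn stood at 1.81, 3.80 and -0.98 in the nucleus accumbens, at -1.06, 0.22 and 1.43 in the prefrontal medial cortex and at 1.55, -0.13 and 0.65 in the hippocampus. Its value in nucleus accumbens pair 2, 13.9-fold, was the highest ratio of any member. Fmod, which regulates collagen fibril assembly, stood at 1.85, 3.00 and -1.25, at -0.55, 0.85 and 1.14 and at 2.15, 0.55 and 1.05. WHP was higher in all 3 hippocampus pairs for Fmod, and also for Dcn, Bgn, Igf2 and Igfbp2. Bgn stood at 0.70, 2.19 and -0.97, at -1.13, -0.16 and 0.76 and at 0.70, 0.09 and 0.33.
Dcn moved less, at 1.00, 1.86 and -0.28, at -0.96, -0.27 and 0.42 and at 0.74, 0.02 and 0.08. Lum stood at 0.29, 0.52 and 0.27, at -0.45, 0.16 and 0.25 and at 0.43, -0.21 and 0.06, and it was the single member above 0 in nucleus accumbens pair 3. Its probe was dim, at or near the level of the median probe in every pool, and the constant of 50 added to each channel pulls the ratios of dim probes towards 0. The part of this in the small Lum ratios was not tested.

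The growth factor genes shared most of the pattern and left it in prefrontal pair 2. Igf2 stood at 1.32, 2.48 and -1.25 in the nucleus accumbens, at -1.62, 1.32 and 0.84 in the prefrontal medial cortex and at 1.72, 0.16 and 0.66 in the hippocampus. Igfbp2 stood at 1.31, 2.67 and -1.71, at -0.76, 1.78 and 0.91 and at 1.75, 0.31 and 0.55. In prefrontal pair 2 both were well above 0 while the 3 collagens lay between -0.28 and -0.18. Igf2 exceeded the mean of the collagens there by 1.56 and Igfbp2 by 2.01, and in the other 8 pool pairs these differences lay between -0.87 and 0.46 and between -0.68 and 0.59. Fmod was the next, 1.08 above the collagens in that pair.

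**Figure D2:**
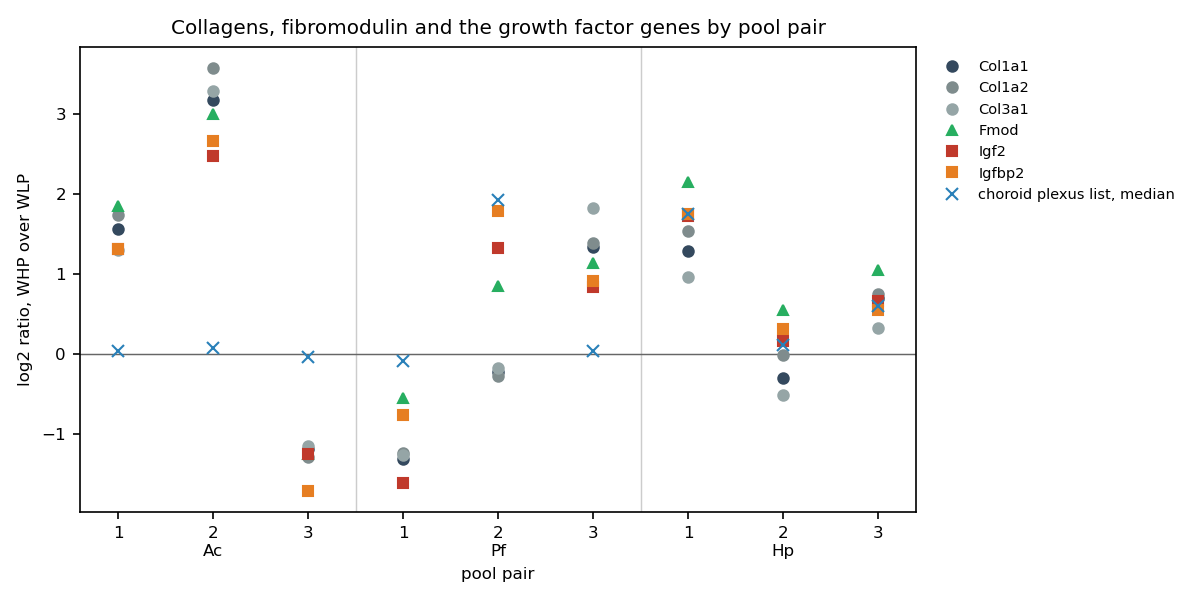
Log2 ratio of WHP over WLP by pool pair for the collagens Col1a1, Col1a2 and Col3a1 (grey circles), Fmod (triangles), Igf2 and Igfbp2 (squares) and the median of 16 choroid plexus genes (crosses). In prefrontal pair 2 Igf2 (1.32) and Igfbp2 (1.78) stand with the choroid plexus genes (1.93) and the collagens stand just below 0.

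Swapping the dyes gave nearly the same ratio for these genes. The sign agreed between both arrays for 10 of 10 genes in 7 pool pairs, for 9 in nucleus accumbens pair 3 and for 6 in hippocampus pair 2. The largest disagreement of any member was 1.03, for Igfbp2 in hippocampus pair 2. The SD between dye-swapped arrays was 0.09 (Bgn) to 0.37 (Igfbp2), and the SD over the 9 pool pairs 0.31 (Lum) to 1.57 (Col1a2). Among 12526 genes with a probe detected in all areas, 9 of the 10 were in the top 1% by SD over the pool pairs (99th percentile 0.73, median of all genes 0.13), and Lum ranked 1070th. This holds for the brightest probes. The dimmer Col1a1 probes had SDs of 0.34 and 0.55, below that percentile. The list was chosen with earlier results of these data known, so the ranks are a description.

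No strain difference passed the test in any area. In the nucleus accumbens 10 of 10 genes had a positive mean, with a median of 1.00 and a range of 0.36 (Lum) to 1.54 (Ogn), and 0 of 10 were called, against 0.252% of all 30217 probes tested (median of all 8.67e-04). Ogn had 1.54 ± 0.80 (moderated SE, n = 3 pool pairs, adjusted p = 0.374 by limma) with a 95% interval of -0.27 to 3.36. The lowest adjusted p was 0.287, for Lum at 0.36 ± 0.15, and at an unadjusted p under 0.05 limma counted 1 gene, and 4924 of all 30217 probes. Leaving out pair 2 moved the median of the 10 genes to 0.21, and leaving out pair 3 moved it to 2.14, with 9 of 10 genes at an unadjusted p under 0.05 and 0 called by limma.

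In the prefrontal medial cortex the means were split, 5 above and 5 below 0, with a median of 0.056 and a range of -0.27 (Dcn) to 0.64 (Igfbp2). The test called 0 of 10, against 0.0905% of 28741 probes, and 0 had an unadjusted p under 0.05 in limma. Leaving out pair 3 moved the median to -0.52 and leaving out pair 1 moved it to 0.69. In the hippocampus 10 of 10 means were positive, with a median of 0.62, from 0.09 (Lum) to 1.25 (Fmod), and so were 16 of 16 choroid plexus genes (median 0.81). Again 0 of 10 were called, against 0.25% of 34752 probes, and 0 had an unadjusted p under 0.05. This fit shares 1 estimate of the spread over the areas. With the hippocampus fitted alone, 4 of 10 genes had an unadjusted p under 0.05 and 0 were called (lowest adjusted p = 0.233 by limma). Such fits gave 1 gene at that p in the nucleus accumbens and 0 in the prefrontal medial cortex. Their counts over all probes are not given. In the shared fit Fmod had 1.25 ± 0.71 (adjusted p = 0.896 by limma). Leaving out pair 1 moved the median to 0.23 and leaving out pair 2 to 1.05.

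Averaged over the areas, all 10 genes had a positive ratio, with a median of 0.59, and 0 passed, against 2.85% of 28377 probes. Fmod was highest at 0.98 ± 0.41 (moderated SE, n = 9 pool pairs, adjusted p = 0.258 by limma), a 1.97-fold difference, and its ratio was positive in 7 of 9 pairs. It was the 1 gene with an unadjusted p under 0.05, beside 5061 of all 28377 probes. Without nucleus accumbens pair 3 Fmod stood at 1.38 and passed (adjusted p = 0.0445 by limma), and 9 of 10 genes had an unadjusted p under 0.05. The other 9 genes lay between 0.15 (Lum) and 0.81 (Ogn). Without both pool pairs whose dye-swapped arrays were uncorrelated, a choice made after seeing the data, the median of the 10 genes was 2.14 in the nucleus accumbens, 1.05 in the hippocampus and 1.09 in the mean. By limma 0 genes were called, and 8 of 10 had an unadjusted p under 0.05 in the mean.

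Differences between areas in the strain ratio were tested next. The nucleus accumbens exceeded the prefrontal medial cortex for 10 of 10 genes (median 0.92) and the hippocampus for 8 of 10 (median 0.42). The prefrontal medial cortex lay below the hippocampus for 10 of 10 (median -0.55). Single pool pairs set these directions. Without nucleus accumbens pair 2 the median was 0.13 against the prefrontal medial cortex (6 of 10 above 0) and -0.44 against the hippocampus (2 of 10 above 0). Without prefrontal pair 1 the prefrontal minus hippocampus median was 0.054, with 5 of 10 above 0. By limma 0 of 10 genes passed in any of these 3 differences, where 0% of all probes passed (948, 2575 and 1029 probes at an unadjusted p under 0.05, and 0 of the 10 genes), with adjusted p of at least 0.691. A slide held both the nucleus accumbens and the prefrontal arrays of one pool pair number. Within slides 1, 2 and 3 the median difference of the 10 genes was 2.49, 2.25 and -2.40, so the sign turned on slide 3.

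The levels of single pools were compared next. Levels are given in log2 units above the median probe of the array, for WHP and WLP pools apart. Col1a2 stood at 5.21, 7.10 and 4.90 in the nucleus accumbens WHP pools and at 3.46, 3.52 and 6.19 in the WLP pools. In the prefrontal medial cortex it stood at 4.73, 3.27 and 5.03 in WHP and at 5.97, 3.55 and 3.64 in WLP, and in the hippocampus at 5.49, 4.24 and 5.15 against 3.95, 4.26 and 4.40. One WHP pool (nucleus accumbens 2) and 2 WLP pools (nucleus accumbens 3 and prefrontal 1) were therefore far above the other pools of their own strain and area.

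**Figure D3:**
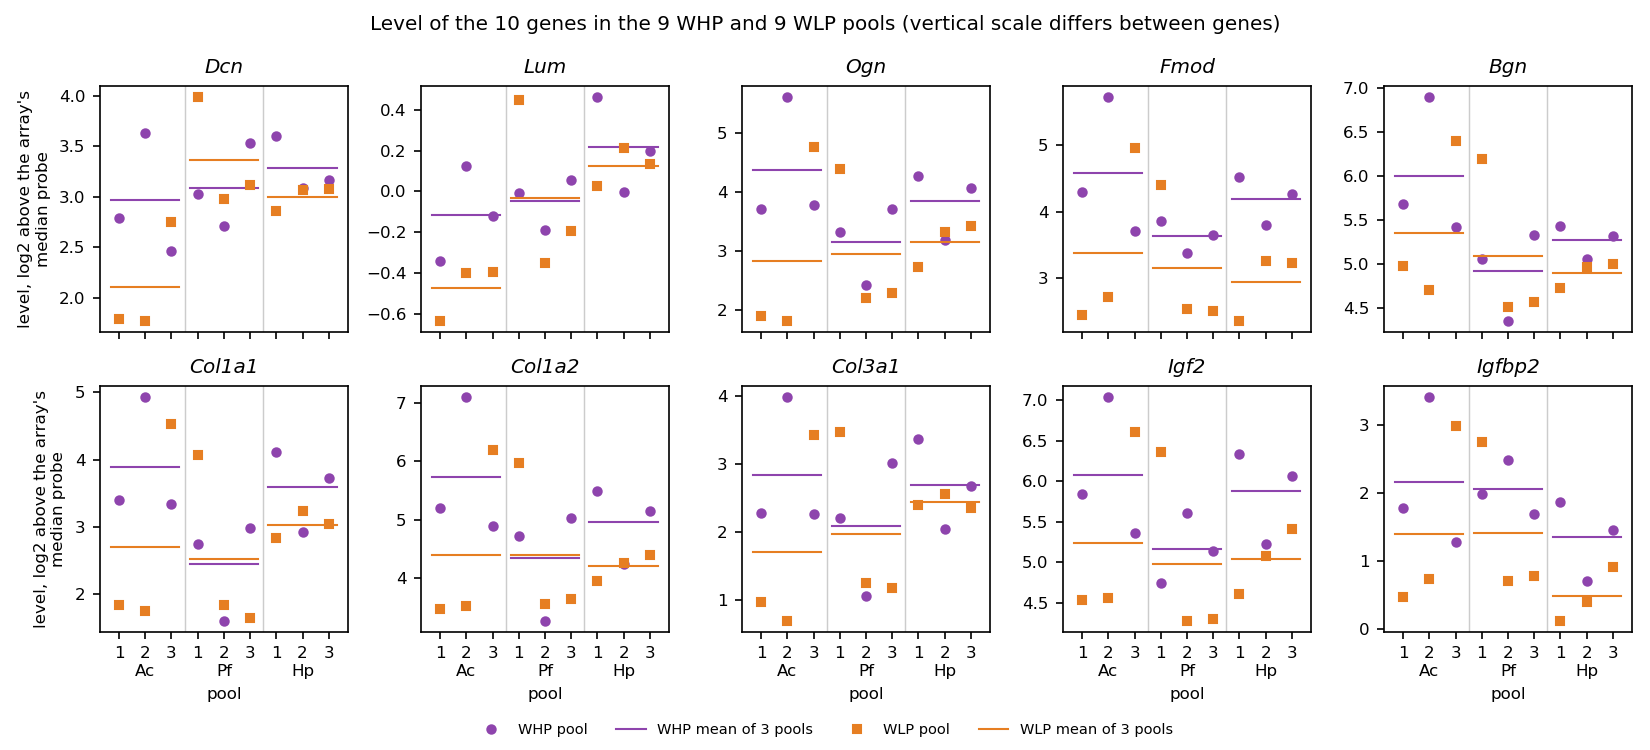
Level of each of the 10 genes (brightest probe, log2 units above the array's median probe) in the WHP pools (circles) and WLP pools (squares) of the nucleus accumbens (Ac), prefrontal medial cortex (Pf) and hippocampus (Hp), with lines at the mean of 3 pools and a separate vertical scale per gene. WHP pool 2 and WLP pool 3 of the nucleus accumbens and WLP pool 1 of the prefrontal medial cortex stand high in nearly every panel.

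The same pools stood out in the median of the 10 genes. In the nucleus accumbens the WHP pools had 3.55, 5.27 and 3.53 and the WLP pools 1.87, 1.80 and 4.65. In the prefrontal medial cortex they had 3.18, 2.60 and 3.60 against 4.23, 2.36 and 2.39, and in the hippocampus 4.19, 3.14 and 3.90 against 2.77, 3.25 and 3.15. Pools of 1 strain and area thus spanned 2.85 log2 units in the nucleus accumbens WLP group and 0.48 in the hippocampus WLP group. WHP and WLP pools overlapped for 9 of 10 genes in the nucleus accumbens, for 10 of 10 in the prefrontal medial cortex and for 7 of 10 in the hippocampus. The exceptions, with all WHP pools higher, were Lum in the nucleus accumbens and Dcn, Fmod and Bgn in the hippocampus. For Dcn the lowest WHP pool stood at 3.09 and the highest WLP pool at 3.08 there. The share of all probes without overlap was not counted, so these counts cannot be read as a result about the 10 genes.

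Between areas, 1 to 3 of the 10 genes passed the level test in each comparison. The hippocampus arrays were scanned in a session of their own, so area and session cannot be told apart in comparisons with the hippocampus. Dcn was lower in the nucleus accumbens than in the prefrontal medial cortex by 1.61-fold (-0.69 ± 0.16, moderated SE, n = 3 pool pairs per area, adjusted p = 0.00502 by limma). Its pools stood at 2.79, 3.64 and 2.47 (WHP) and 1.79, 1.78 and 2.75 (WLP) in the nucleus accumbens, and at 3.03, 2.71 and 3.53 and 3.99, 2.98 and 3.12 in the prefrontal medial cortex, so the pools of both areas overlapped. Dcn was the 1 of 10 genes called in this comparison, against 49.7% of 30456 probes. With the WHP channels alone it stood at -0.13 and did not pass (adjusted p = 0.776), and with each channel centred on its median at -0.55 (adjusted p = 0.192).

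Against the hippocampus, the nucleus accumbens had less Dcn (-0.61 ± 0.16, adjusted p = 0.00562 by limma) and less Lum (-0.47 ± 0.12, adjusted p = 0.00573) and more Igfbp2 (0.87 ± 0.32, adjusted p = 0.0343). These 3 of 10 genes were called, against 73.5% of 35127 probes. Igfbp2 was also higher in the prefrontal medial cortex than in the hippocampus (0.82 ± 0.32, adjusted p = 0.0438 by limma), the 1 of 10 called there against 70.3% of 34905 probes. Its pools had means of 2.15 ± 1.11 (SD, n = 3 pools) in WHP and 1.40 ± 1.38 in WLP in the nucleus accumbens, 2.05 ± 0.40 and 1.41 ± 1.16 in the prefrontal medial cortex and 1.34 ± 0.59 and 0.48 ± 0.40 in the hippocampus. Neither Igfbp2 call held with hippocampus pair 1 or pair 2 left out (adjusted p from 0.0593 to 0.143). The first was also lost without nucleus accumbens pair 2 or 3 (adjusted p = 0.109 and 0.110 by limma) and the second without prefrontal pair 1 or 2 (adjusted p = 0.167 and 0.0662). The Dcn and Lum calls against the hippocampus were lost with WHP channels alone (adjusted p = 0.379 and 0.0660). Both Igfbp2 calls were also lost with WHP channels alone (adjusted p = 0.190 and 0.254 by limma) and with WLP channels alone (0.266 and 0.265). The prefrontal Igfbp2 call was lost with each channel centred on its median as well (adjusted p = 0.108 by limma).

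By their brightest probes the collagens had no level difference between areas past the test. Col1a1 was 1.76-fold higher in the nucleus accumbens than in the prefrontal medial cortex (0.82 ± 0.41, adjusted p = 0.126 by limma) and Col1a2 1.62-fold (0.70 ± 0.45, adjusted p = 0.223). Col3a1 differed by 0.24 ± 0.40. The dimmer Col1a1 probes did pass against the hippocampus. The one at chr10:83637903-83637962 was lower in the nucleus accumbens (-0.49 ± 0.14, adjusted p = 0.0087 by limma) and in the prefrontal medial cortex (-0.49 ± 0.14, adjusted p = 0.0092), and its neighbour in the prefrontal medial cortex (-0.52 ± 0.18, adjusted p = 0.0278). With the median of all its probes Col1a1 was lower in the prefrontal medial cortex than in the hippocampus (-0.50, adjusted p = 0.0261 by limma). The mean Col1a2 level was 5.74 ± 1.19 (SD, n = 3) in the nucleus accumbens WHP pools, 4.34 ± 0.94 in the prefrontal and 4.96 ± 0.65 in the hippocampus WHP pools. In WLP it was 4.39 ± 1.56, 4.39 ± 1.37 and 4.21 ± 0.23. The single Col1a2 pools of the areas overlapped in both strains. Among the proteoglycans, Bgn came closest to a call in the nucleus accumbens (0.67 ± 0.25 above the prefrontal medial cortex, adjusted p = 0.0505 by limma). Single pool pairs decided these results. Without prefrontal pair 1 the nucleus accumbens excess passed for Col1a1 (1.28, adjusted p = 0.0138 by limma), Col1a2 (1.19, 0.0303), Bgn (0.98, 0.0030), Fmod (0.95, 0.0139) and Igf2 (0.83, 0.0203). Without nucleus accumbens pair 1 it passed for Col1a1 (1.16, adjusted p = 0.0440 by limma), Fmod, Bgn and Igf2. Without prefrontal pair 1 Col1a1 (-1.30, adjusted p = 0.0081 by limma), Col3a1, Igf2 and Lum were lower in the prefrontal medial cortex than in the hippocampus. Lum passed against the prefrontal medial cortex without prefrontal pair 2 (-0.37, adjusted p = 0.0275 by limma), and Bgn against the hippocampus without nucleus accumbens pair 1 or prefrontal pair 1 or 2.

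The genes moved up and down together over the pool pairs. Over the 9 pairs the median Pearson r of the 45 gene pairs was 0.90, which is a description with no test, since pool pairs share slides and the list was chosen with earlier results known. Col1a1 and Col1a2 had the highest r (0.997), followed by Ogn with Col1a1 (0.993) and Ogn with Col1a2 (0.992). Lum with Igfbp2 had the lowest (0.56). The r of each gene with the median of the other 9 ran from 0.70 (Lum) and 0.85 (Igfbp2) to 0.99 (Col1a2), while the median r of a member with all 12516 other genes lay between 0.003 and 0.052. Without the 2 pool pairs farthest from the median it was 0.68 for Igfbp2, 0.81 for Igf2, 0.90 for Lum and 0.89 to 0.98 for the rest.

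**Figure D4:**
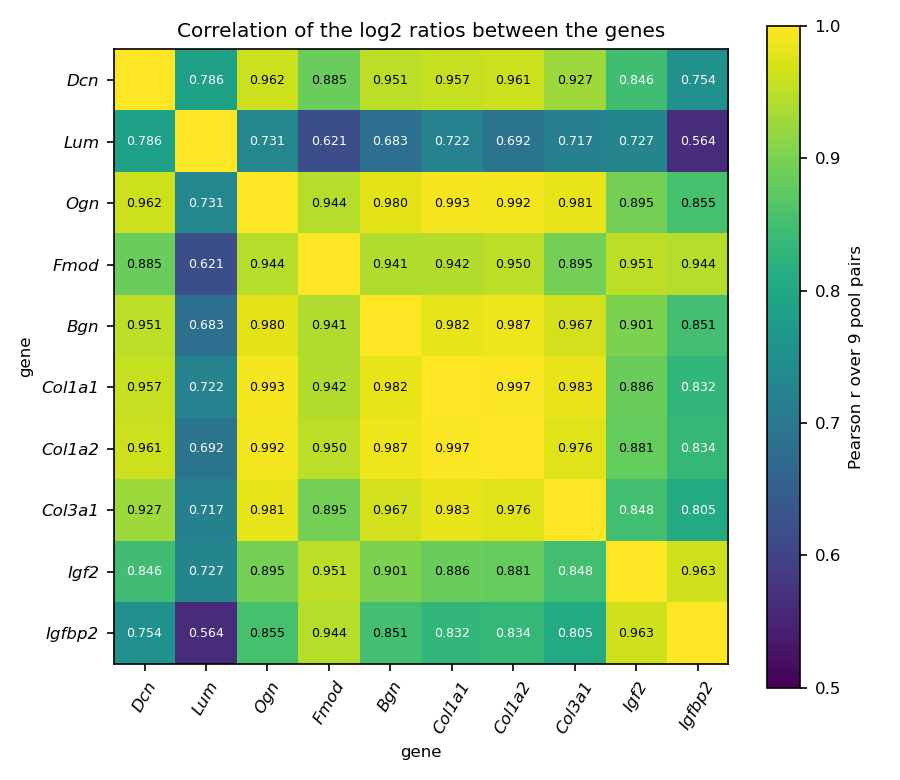
Pearson correlation of the log2 ratios (WHP over WLP) between each pair of the 10 genes over the 9 pool pairs, by colour and number. The collagens, Ogn and Bgn form a block from 0.967 to 0.997, Igf2 and Igfbp2 correlate at 0.96 with each other and lower with the collagens, and the lowest value, 0.56, is that of Lum with Igfbp2.

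Igf2 and Igfbp2 correlated with each other at 0.96 and with the mean of the collagens at 0.88 and 0.83. Leaving out prefrontal pair 2, a choice made after its values were seen, raised these to 0.95 and 0.94. With the slope of 1 meaning an equal change, the slope on the median of the other genes was 1.29 for Col1a2, 1.22 for Ogn, 0.59 for Dcn and 0.16 for Lum, so the genes shared a direction and not a size.

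The genes most like the 10 in pattern were ranked by Pearson r with their median ratio over the 9 pool pairs. Among the highest were the carboxypeptidase Cpz (0.994), the prostaglandin D synthase Ptgds (0.994), the procollagen C-proteinase enhancer Pcolce (0.992), Ifitm1 (0.992), Crispld2 (0.988), the chemokine Ccl19 (0.988) and osteomodulin, Omd (0.986). Ptgds stood at 1.61, 3.80 and -1.23 in the nucleus accumbens pairs, close to the values of Ogn. Of 12516 genes compared, 71 had an r above 0.95 and 203 an r above 0.9. The latter count is the background for the list counts of r above 0.9 given below. The lowest r belonged to Atp5if1 (-0.92), Nkap (-0.91), Arhgap20l1 (-0.90) and Tmprss7 (-0.89), whose ratios varied little (SD up to 0.097).

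Other genes of collagen assembly and the matrix followed the 10 genes only in part. Of 137 further genes measured from 10 pathway lists, 0 passed the test in any single area, against the background shares given above. In the mean of the areas 1 of 121 passed, against 2.85% of all 28377 probes. It was Cd44, a receptor for hyaluronan and collagen (0.25 ± 0.05, adjusted p = 0.0333 by limma, r with the members 0.39). Elastic fibre and adhesive matrix genes (20) had r above 0.9 in 9 cases, with Ltbp1 at 0.65, 2.40 and -0.47 and Mfap5 at 1.42, 1.89 and 0.10 in the nucleus accumbens. Collagen processing and cross-linking genes (24) had r above 0.9 in 5. Among them Pcolce stood at 1.02, 2.24 and -0.75, and Sparc, a collagen-binding protein, at -0.35, 0.32 and -0.26.

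Collagen VI and related fibroblast collagens (7 genes) had a median r of 0.73 with the members, basement membrane collagens and laminins (13 genes) 0.69 and other fibrillar collagens (12 genes) 0.56. Col8a1 (0.43 in nucleus accumbens pair 2 and 1.12 in prefrontal pair 2), Col8a2 (0.81 and 0.55), the linker proteins Nid1 (1.16 and 0.34) and Nid2 (1.20 and -0.0090), and Col2a1 (0.84 and 0.41) and Col9a2 (0.87 and 0.26) had the largest mean ratios of these lists. Among other small leucine-rich proteoglycans Omd stood at 1.56, 2.42 and -0.68 in the nucleus accumbens and Prelp at 0.73, 0.59 and -0.50. The collagen receptor subunit Itga1 stood at 0.31, 1.11 and -0.39 there.

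Matrix proteases (16 genes) had a median r of 0.35, from -0.74 to 0.96, and included Mmp14 at 1.13 in nucleus accumbens pair 2 and 1.54 in hippocampus pair 1, and Mmp2 at 0.60 and 1.23. The insulin-like growth factor axis beyond Igf2 and Igfbp2 (15 genes) had a median r of 0.23. Its binding proteins Igfbp3 (0.63, 1.44 and 0.20 in the nucleus accumbens, r = 0.91) and Igfbp6 (0.84, 1.46 and 0.08, r = 0.85) had the largest mean ratios. TGF-beta signalling genes (14), which regulate matrix synthesis, had a median r of 0.33, with the matrix protein gene Ccn2 at 0.51, 1.19 and 0.0043 and the inhibitor Smad7 at -0.17, 0.07 and -0.34.

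Markers of cell types showed with which of them the 10 genes moved. Transporters and regulators known from meningeal fibroblasts, none of them members, had r above 0.9 in 13 of 18 genes, and the median ratio of that list followed the members with r = 0.99. Among them Ptgds had the largest mean ratio and the retinoic acid synthesis enzyme Aldh1a2 stood at 1.14, 1.86 and -0.22 in the nucleus accumbens. Their mean level ran from 2.16 to 3.13 in the nucleus accumbens WHP pools and from 1.81 to 2.69 in the WLP pools, and 18 of 18 were detected in every area. The list was chosen with earlier results of these data known, so it is no independent check of the label of the 10 genes.

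**Figure D5:**
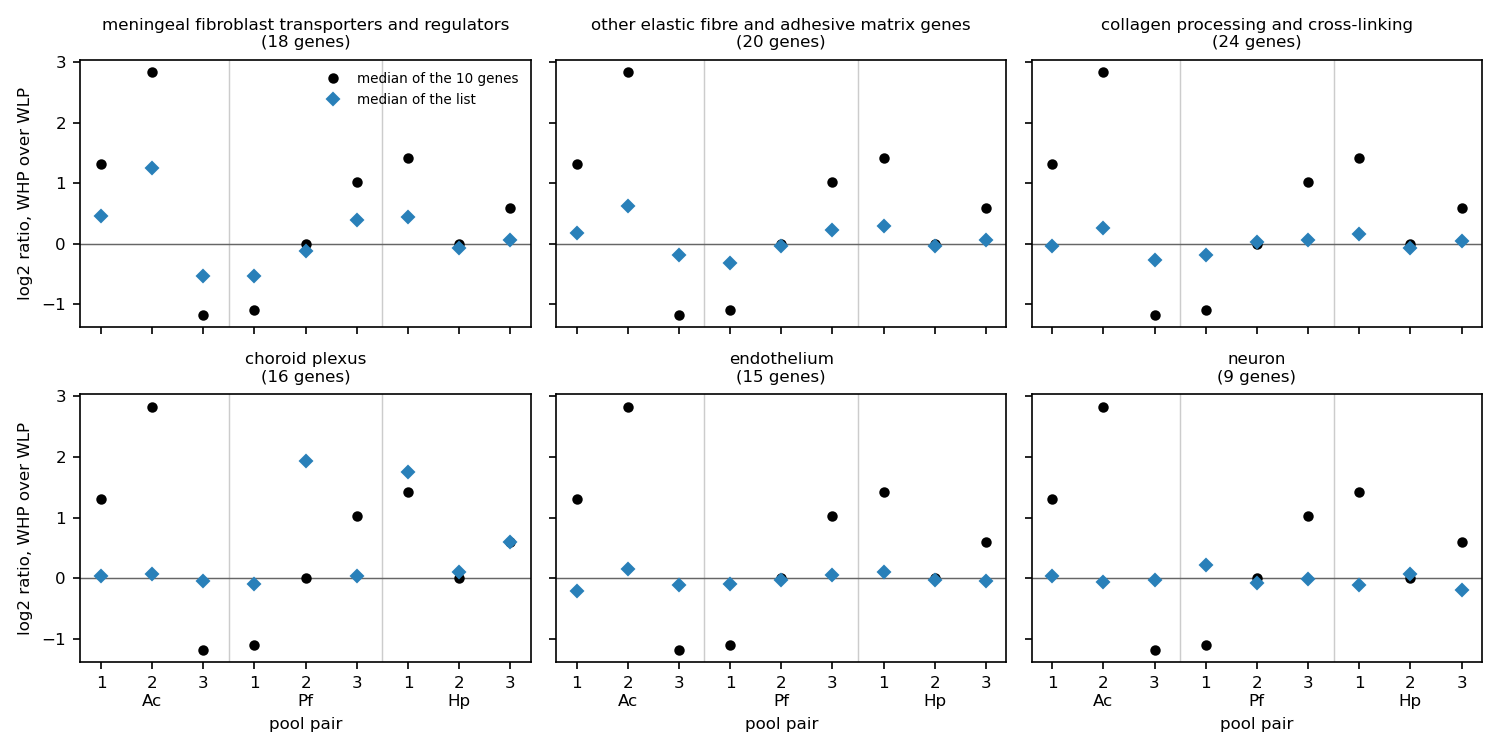
Median log2 ratio of WHP over WLP by pool pair for the 10 genes (circles) and for 6 gene lists (diamonds), with the number of measured genes of each list in its title. The meningeal list follows the 10 genes at a smaller size, the choroid plexus list rises in prefrontal pair 2 (1.93) and hippocampus pair 1 (1.75), and the endothelium and neuron lists stay near 0.

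Choroid plexus genes, the epithelium that secretes cerebrospinal fluid, followed the 10 genes in the hippocampus and not in the nucleus accumbens. Their median was 0.03, 0.08 and -0.05 in the nucleus accumbens pairs, where the members moved most. It was -0.09, 1.93 and 0.04 in the prefrontal and 1.75, 0.11 and 0.60 in the hippocampus pairs, where the 10 genes had 1.42, 6.82e-04 and 0.60. The median of the 16 genes correlated with that of the members at 0.11, although Kcnj13 reached 2.81 in nucleus accumbens pair 2 and Aqp1 stood at 0.73, 2.12 and -1.65 in that area (r = 0.82). Sostdc1 stood at 5.84 and Kcnj13 at 3.67 in prefrontal pair 2, the pair in which Igf2 and Igfbp2 left the collagens. Their mean level was 2.60 in the highest prefrontal WHP pool and -0.08 in the lowest, against -0.14 to 0.38 in the WLP pools, and 5 of 16 were not detected in the nucleus accumbens and 6 in the prefrontal medial cortex. The part of these cells in the Igf2 and Igfbp2 ratios, and in the hippocampus ratios of the 10 genes, was not tested.

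Of 12 genes of microglia and border macrophages 2 had r above 0.9, Mrc1 at 0.98 (0.51, 1.77 and -0.42 in the nucleus accumbens) and the antigen presentation gene Cd74 at 0.94 (0.51, 1.68 and -0.51). Over the 12 genes r ran from -0.56 to 0.98 with a median of 0.56. Of 11 pericyte and smooth muscle genes 0 had r above 0.9 (median 0.73), with Tagln at 1.13, 2.27 and -0.10 (r = 0.85) and Des at 0.83, 1.70 and 0.03. Endothelial genes (15) had a median r of 0.64 with small ratios, between -0.20 and 0.15 in the list median, although Vwf reached 1.32 in nucleus accumbens pair 2. Neuron genes (9) had a median r of -0.32, and Map2 and Syt1 stood between -0.52 and 0.22. Astrocyte, oligodendrocyte, ependyma and blood genes had median r of 0.31, 0.46, -0.12 and 0.13. Of 105 cell type genes tested in the mean of the areas 2 passed, against 2.85% of all 28377 probes. Both were lower in WHP, the haemoglobin gene Hbb-b1 (-0.36 ± 0.06, adjusted p = 0.0180 by limma) and the complement gene C1qa (-0.18 ± 0.04, adjusted p = 0.0497 by limma). The part of any of these cell types in the ratios of the members was not tested.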

How the data were processed

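The deposited intensities are scanner output of Agilent Feature Extraction 10.10.1.1, per the file headers. The mean signal of each spot and the median of its surrounding background were used for both dyes. The scanner's processed intensities in the same files, and a deposited table of log2 ratios whose normalization is not given in the sources used here, served as alternatives. With limma 3.58.1 in R 4.3.3, signals were background-corrected (normexp, offset 50) and loess-normalized within arrays. Flagged spots were left out, the labelled dyes gave the direction of each ratio (WHP over WLP), and dye-swapped arrays were averaged. Levels are channel signals after Aquantile normalization. Probes well above background on at least 4 of 6 arrays of a strain were fitted with lmFit and eBayes over the 9 pool pairs, with 1 coefficient per area, two-sided, Benjamini-Hochberg adjusted over all tested probes, threshold 0.05. The fit was tested on simulated data.

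All 10 genes are named. Each is given by its brightest detected probe. From each list the genes past the test are named, and otherwise up to 2 with the largest mean ratio, and so are the 8 most and 4 least alike genes, except 1 that is not reported here. Some further list genes and pools were singled out after their values were seen. Probes were named through RefSeq accessions or symbols (19689 of 41012 unnamed). The members and lists were chosen with earlier results of these data known. P-values measure the spread between pools, with 1 estimate shared by the areas. Alternatives covered signal, background, probe choice, dye orientation, scaling, filter, blocks and each pool pair left out.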

Additional observations from a re-analysis of the deposited data

How the results depend on the processing

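The strain ratios of the 10 genes stayed uncalled under every alternative run, in 1369 of 1370 gene values, and the exception was Fmod in the mean of the areas without nucleus accumbens pair 3. The median strain ratio in the mean of the areas ran from 0.27 to 0.96 with single pool pairs left out. Of the strain values, of which 0 were called to begin with, 53 changed sign. Of 520 level values 26 gained and 21 lost a call. The median level difference of the prefrontal medial cortex minus the hippocampus, -0.21, was -0.78 with each channel centred on its median (6 of 10 genes called, all lower; the median of all probes was -0.028 against -0.056 with that centring). It was -0.58 with WHP channels alone, 0.066 with WLP channels alone and -0.31 without the 2 pool pairs whose dye-swapped arrays were uncorrelated, a choice made after seeing the data, each with 0 genes called. With single pool pairs left out it ran from -0.59 to -0.021. For the nucleus accumbens minus the hippocampus (0.15) it was 0.34 with WHP channels alone, with 0 called, and it turned to -0.29 with channel centring, -0.072 with WLP channels alone, -0.10 without nucleus accumbens pair 3 and -0.24 without the 2 uncorrelated pairs. For the nucleus accumbens minus the prefrontal medial cortex (0.56) it was -0.0050 with WLP channels alone. The causes were not tested.

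Whether equal replicate numbers in different areas mean the same rats is not stated. Deviations of same-numbered pool pairs correlated across areas between -0.38 and 0.17. Those of differently numbered pool pairs correlated between -0.19 and 0.36. With 3 pool pairs per area these values cannot decide whether the pools are paired. With the replicate block the level difference of the prefrontal medial cortex minus the hippocampus stayed at -0.21, and both Igfbp2 calls were lost (adjusted p = 0.0578 and 0.0711 by limma); it changed no other call among the 10 genes. The median correlation of the gene pairs ran from 0.88 to 0.95 with single pool pairs left out. All 14 probes were well above background, and what limits the precision was not tested. A single dye orientation can mix dye and strain differences.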
